A study of Mus musculus with 8 samples.

Results

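The miR-34 family was followed in isolated mouse cardiomyocytes, the contractile cells of the heart, after a sham operation or transverse aortic constriction (TAC), a narrowing of the aorta that overloads the left ventricle with pressure and drives it towards heart failure. Its members were taken by name from small RNA count tables of 8 libraries: mmu-miR-34a-5p, mmu-miR-34a-3p, mmu-miR-34b-5p, mmu-miR-34b-3p, mmu-miR-34c-5p and mmu-miR-34c-3p. Of these 6 names, 5 occurred among the 697 miRNAs counted, and mmu-miR-34b-5p did not. Both groups were male mice operated at 2 months of age under ketamine and xylazine anaesthesia as the methods describe it for TAC, with no engineered allele named, and each held 4 libraries, numbered Sham1 to Sham4 and TAC1 to TAC4. The methods place the heart examination 14 weeks after surgery and describe the mice as 14-week-old when the cells were released by Langendorff perfusion, and each library held RNA from a portion of the myocytes of a single heart. The strain is not given in the sources used here.

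The miR-34 miRNAs are among the best known targets of the tumour suppressor p53, which binds near their genes after DNA damage and switches them on. The mature miRNAs then repress mRNAs of the cell cycle and of cell survival. In the heart, miR-34a-5p is known from work on ageing and on recovery after injury. Each gene is transcribed into a hairpin whose left (5p) and right (3p) arms can both become mature miRNAs, and bases 2 to 8 of the arm, its seed, choose the mRNAs it pairs with.

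The mature sequences show which of the printed members share a seed. They are printed 5′ to 3′ from RefSeq (GRCm38.p6) with the seed in capitals, together with mmu-miR-449a-5p, which is not a member but has the seed of mmu-miR-34a-5p. In the order of the lines, a first set shares GGCAGUG, a second set shares AUCACUA, and the last sequence stands alone.
mmu-miR-34a-5p: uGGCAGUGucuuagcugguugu
mmu-miR-34b-5p: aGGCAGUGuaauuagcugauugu
mmu-miR-449a-5p: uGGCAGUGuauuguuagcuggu
mmu-miR-34b-3p: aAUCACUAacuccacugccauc
mmu-miR-34c-3p: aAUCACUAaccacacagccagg
mmu-miR-34a-3p: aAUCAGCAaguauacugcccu

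A RefSeq sequence was found for 593 of the 697 counted miRNAs. miR-34c-5p, a counted member, is neither printed nor in that number, so the seed counts leave it out. Among the 593 the seed GGCAGUG occurred in 2, miR-34a-5p and miR-449a-5p, and AUCACUA also in 2, miR-34b-3p and miR-34c-3p. The latter pair is identical up to position 10 counted from the 5′ end, and the 5 differences between them read U11C, C12A, U16A, U21G and C22G, with the base of miR-34b-3p first. The hairpin of Mir34a lies on the plus strand at chr4:150068454-150068555, inside an exon of the unclassified transcript Gm37795. Those of Mir34c (chr9:51103034-51103110) and Mir34b (chr9:51103562-51103645) lie 451 bases apart on the minus strand, within Btg4, a gene of the plus strand, and outside its exons.

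The miRNA counts summed to between 4005668 and 5392576 per sham library and between 5507169 and 7798943 per TAC library. The cardiomyocyte miRNAs miR-1a-3p and miR-133a-3p held ranks 1 and 3 among all miRNAs, which fits the label, although miR-126a-3p, typical of endothelial cells, held rank 12. In bulk RNA of this kind, fewer cells of a type and less RNA per cell cannot be told apart. Sham1 stood apart from the other sham libraries. Summed over marker lists, it had the highest cardiomyocyte level of the sham group (198133 against 160712 to 181957 counts per 1000000 miRNA counts, CPM) and the lowest erythroid (418 against 919 to 1503 CPM), leukocyte (2943 against 3889 to 4932 CPM), endothelial, and fibroblast and smooth muscle levels. The members of a list did not all move alike. Sham1 was lowest of the sham group for 3 of 3 erythroid, 3 of 6 leukocyte and 3 of 7 fibroblast and smooth muscle miRNAs. In the latter 2 lists 1 miRNA each was highest in Sham1, miR-223-3p (47.1 against 21.72 to 35.05 CPM) and miR-21a-5p (2381 against 1448 to 1890 CPM). It was highest for 1 of 5 cardiomyocyte miRNAs, miR-133a-3p, and of the 2 endothelial miRNAs it was lowest for miR-126a-3p and highest for miR-126a-5p (23488 against 16874 to 22419 CPM).

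The members were scarce. Together they took 76.2 ± 20.8 CPM in sham libraries (mean ± SD, n = 4) and 58.5 ± 5.30 in TAC libraries (n = 4). Ordered by total count, miR-34a-5p ranked 182 of 697, miR-34c-5p 212, miR-34b-3p 336, miR-34c-3p 606 and miR-34a-3p 627. Only miR-34a-5p and miR-34c-5p passed the mean of 100 counts needed for the test across miRNAs, in which 223 miRNAs took part, and miR-34b-3p was the only other member counted in every library. The family's counts were mostly miR-34a-5p (57.4 ± 15.0% in sham and 59.9 ± 7.10% in TAC libraries) and miR-34c-5p (38.2 ± 13.3% and 33.6 ± 7.05%), with miR-34b-3p at 4.21 ± 1.87% and 5.71 ± 1.62%.

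**Figure D1:**
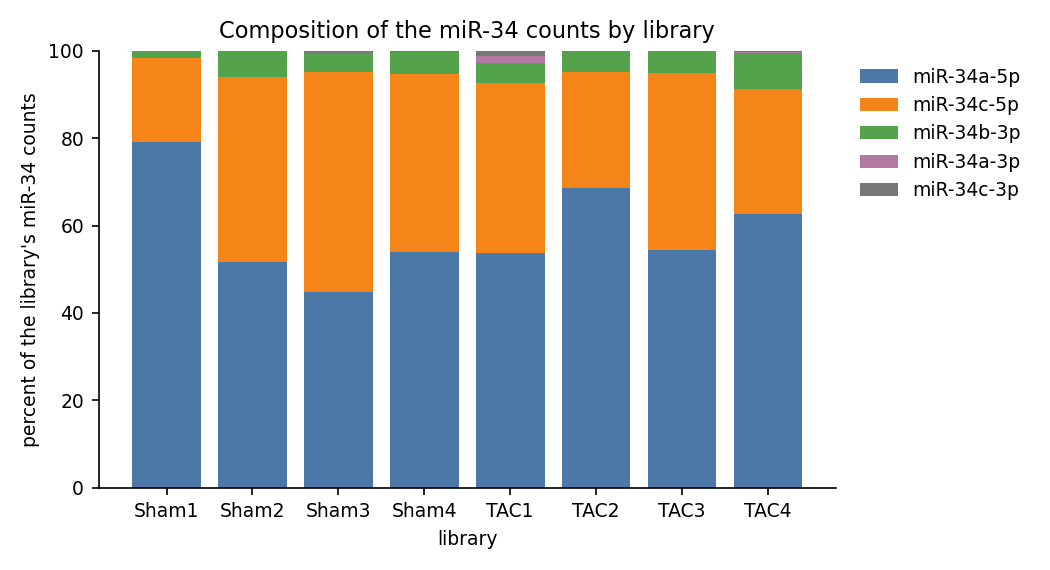
Share of each member in the miR-34 counts of a library (vertical axis, percent of that library's miR-34 counts; 1 bar per library). miR-34a-5p takes between 44.8% and 79.1%, with its highest share in Sham1, and the 3p arms of Mir34a and Mir34c are barely visible.

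CPM and reference-scaled CPM are both used. CPM divides a count by its library's total. The study scaled its libraries by miR-19b-3p and miR-126a-3p, which it reports as unaltered after a check by quantitative PCR. It also reports a high correlation between quantitative PCR of a set of miRNAs and its sequencing. Here the mean CPM of these reference miRNAs in TAC was 0.537 of that in sham libraries. Reference-scaled CPM therefore divides every TAC value by 0.537 and leaves sham values as they are. This step shifts all TAC values together: the median log2 fold change (TAC over sham) of the 223 tested miRNAs was 0.61 with reference scaling, −0.082 with trimmed mean (TMM) scaling and −0.29 with library totals. The reference miR-126a-3p is itself in the endothelial list and lay between 25759 and 50698 CPM in sham and between 20677 and 23630 CPM in TAC libraries, and the part of cell makeup in this scaling was not tested. A change of a member is therefore read against the median of all miRNAs in the same fit.

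miR-34a-5p, the member with the strongest known tie to p53, was not called different between TAC and sham cardiomyocytes when all 8 libraries were used, and on the reference scale that answer rested on a single sham library. Its counts were 386, 171, 169 and 132 in Sham1 to Sham4 and 175, 321, 220 and 232 in TAC1 to TAC4. As CPM these were 83.4, 31.7, 34.4 and 33.0 CPM in sham and 31.8, 41.2, 34.7 and 32.1 CPM in TAC libraries. Sham1 was the highest of all 8, and the other 7 libraries lay within a narrow band in which the groups overlapped.

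On the reference scale miR-34a-5p averaged 45.6 ± 25.2 CPM in sham and 65.1 ± 8.10 CPM in TAC libraries (SD, n = 4 each). The log2 fold change was 0.51 (SE 0.32, adjusted p = 0.179, edgeR quasi-likelihood test with Benjamini-Hochberg adjustment), below the median of 0.61 and above 38.6% of the tested miRNAs. A two-sided exact permutation test on its log2 values, in which each of the 70 arrangements had its own reference factor, gave p = 0.229, where the smallest possible is 0.0286. Of the 2 members tested, 0 were called higher (adjusted p below 0.05 and a fold above 1.7), while 36.8% of the tested miRNAs were. With TMM scaling 0 of the 2 were called, and 5.83% of the tested miRNAs were, in either direction. The estimates for miR-34a-5p were then −0.17 with TMM (adjusted p = 0.751, edgeR) and −0.38 with library totals (adjusted p = 0.384, edgeR), so the sign of its change followed the scaling while its distance from the median moved little, −0.093 with reference scaling and −0.084 with TMM.

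**Figure D2:**
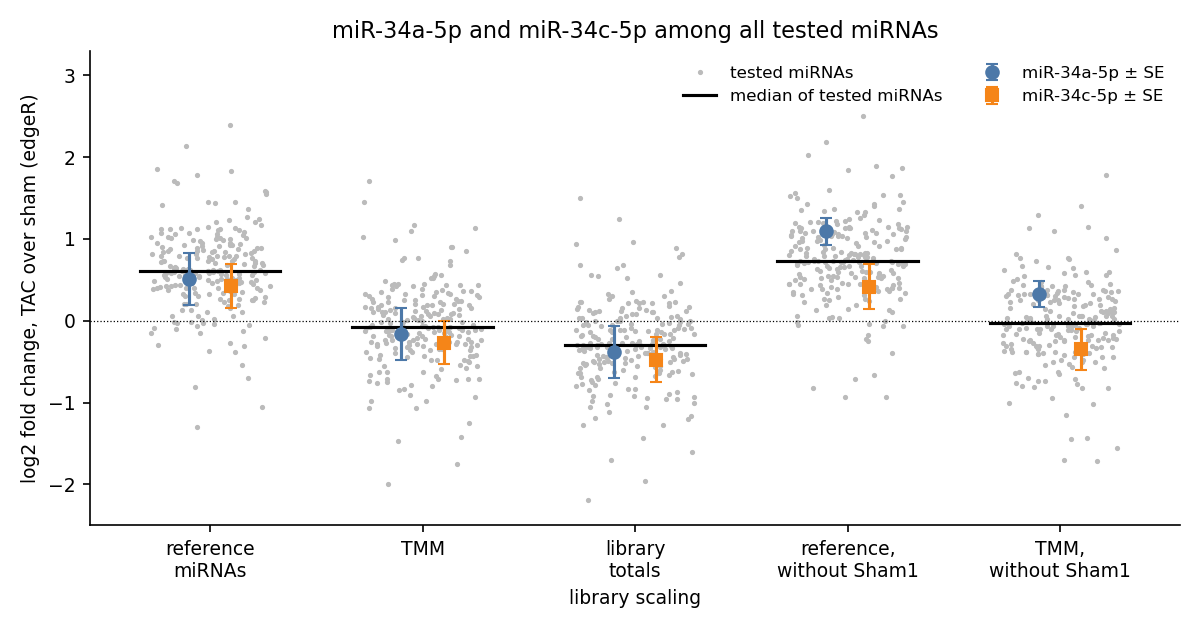
Log2 fold change of TAC over sham from edgeR (vertical axis) for each tested miRNA (grey points, spread sideways at random), with miR-34a-5p (circles) and miR-34c-5p (squares) ± SE and the median of all tested miRNAs (black line), under 5 combinations of scaling and libraries. Both members lie below the median with all 8 libraries, at 0.51 and 0.42 against 0.61 with reference scaling, and miR-34a-5p lies above it once Sham1 is left out.

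Without Sham1 the remaining sham libraries averaged 33.0 ± 1.37 CPM (n = 3), a coefficient of variation of 4.14%, and Sham1 was 2.52 times that mean. Counting error alone was 5.09 to 8.70% per sham library, where the low end is that of Sham1, the library left out. A spread of 4.14% over the remaining 3 libraries is thus smaller than counting alone gives and understates the variation. The coefficient of variation over all 4 sham libraries was 55.2%. Leaving Sham1 out raised the reference-scaled log2 fold change of miR-34a-5p to 1.09 (SE 0.16, adjusted p = 5.52e-04, edgeR), which passed the call, 0.36 above that fit's median of 0.73. The two-sided exact permutation p was 0.0286, the smallest that 35 arrangements give. Sham1 was singled out by its high value of this same miRNA, and leaving it out favours a rise. These p-values are therefore no independent evidence of a change. That fit called 1 of the 2 members higher beside 47.5% of the tested miRNAs, and the factor for TAC fell to 0.495. With TMM in the same 7 libraries the estimate was 0.33 (adjusted p = 0.193, edgeR), and with library totals 0.074 (two-sided exact permutation p = 0.657). The call of miR-34a-5p without Sham1 was thus made with the reference scaling and not with the other scalings, and leaving out any other library gave, on the reference scale, between 0.29 and 0.61 with no call.

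The high value of miR-34a-5p in Sham1 was compared with that of the other tested miRNAs. By Dixon's ratio of gap to range, Sham1 was a high outlier of its group for 3.59% of the tested miRNAs, 8 of 223. miR-34a-5p was among them with a ratio of 0.947, above the 95% critical value for 4 samples. This count was 10 for TAC1, 9 for TAC4, 5 for Sham2 and 0 for Sham3, Sham4, TAC2 and TAC3. That of Sham1 was thus the highest of the sham group and below those of TAC1 and TAC4. With 4 samples only wide gaps are flagged: miR-107-3p was not, at 515 CPM in Sham1 against 184 to 265 CPM in the other sham libraries. The reference miRNAs were lowest of the sham group in Sham1. The marker sums given above also set Sham1 apart, carried by all erythroid members but only some of the other lists, and their part in the value of miR-34a-5p was not tested.

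miR-34c-5p, made from the hairpin that neighbours Mir34b, varied more evenly and was not called in any fit. Its counts were 94, 140, 190 and 100 in Sham1 to Sham4 and 126, 124, 164 and 106 in TAC1 to TAC4. These were 20.3, 26.0, 38.7 and 25.0 CPM in sham and 22.9, 15.9, 25.9 and 14.7 CPM in TAC libraries. The groups overlapped, with the highest value in Sham3 and the lowest in TAC4.

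On the reference scale miR-34c-5p averaged 27.5 ± 7.88 CPM in sham and 36.9 ± 10.1 CPM in TAC libraries (SD, n = 4 each). The log2 fold change was 0.42 (SE 0.27, adjusted p = 0.192, edgeR), above 29.6% of the tested miRNAs, and the two-sided exact permutation test gave p = 0.171. With TMM it was −0.27 (adjusted p = 0.520, edgeR) and with library totals −0.47 (adjusted p = 0.218, edgeR). Its coefficients of variation were 28.7% in sham and 27.3% in TAC libraries.

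miR-34b-3p was the only member whose reference-scaled values did not overlap between the groups, at a level of a few CPM. Its counts were 8, 20, 16 and 12 in Sham1 to Sham4 and 15, 23, 21 and 30 in TAC1 to TAC4. On the reference scale these were 1.73, 3.71, 3.26 and 3.0 CPM in sham and 5.07, 5.49, 6.17 and 7.74 CPM in TAC libraries. By library totals the TAC values were 2.72, 2.95, 3.31 and 4.15 CPM, which overlapped the sham values.

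The reference-scaled means of miR-34b-3p were 2.92 ± 0.849 CPM in sham and 6.12 ± 1.17 CPM in TAC libraries (SD, n = 4 each), a log2 difference of 1.06 with a two-sided exact permutation p = 0.0286, the smallest this design can give. Among the 409 miRNAs with a mean above 10 counts, all TAC libraries were above all sham libraries for 39.9% on this scale, and 1 of the 3 members in that set did so. By library totals the groups did not overlap in either direction for 22.5% of these miRNAs and for 0 of the 3 members. In an edgeR fit of the 409 miRNAs, added after the data were seen, miR-34b-3p was called higher with a log2 fold change of 1.06 (SE 0.33, adjusted p = 0.0248), as were 29.8% of the miRNAs in that fit, and it lay above 81.4% of them. Without Sham3 that adjusted p was 0.0676 (edgeR).

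The higher level of miR-34b-3p depended on the reference scaling. With TMM the log2 difference was 0.40 (two-sided exact permutation p = 0.2) and with library totals 0.20 (p = 0.543, same exact test). Counting alone sets wide limits here: the group sums of 56 and 89 counts give a TAC to sham ratio of 1.12 by library totals, with an exact 95% interval of 0.793 to 1.59 that covers counting error only.

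**Figure D3:**
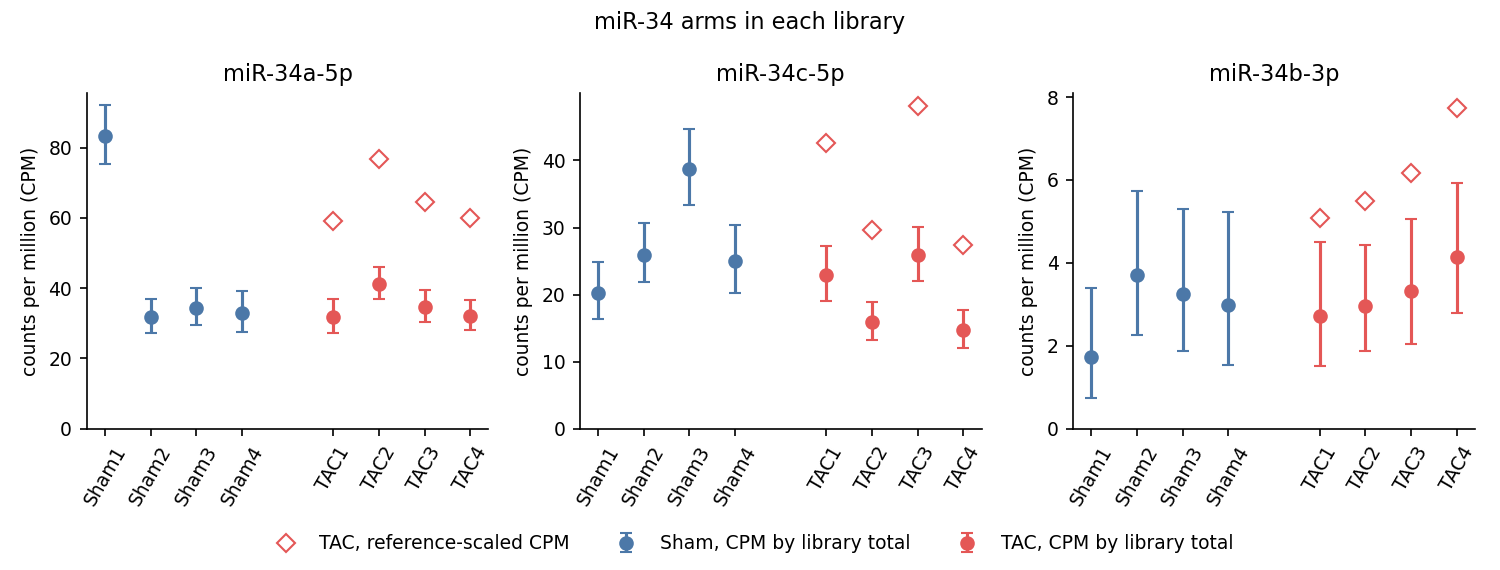
CPM of miR-34a-5p, miR-34c-5p and miR-34b-3p in each library (vertical axes, linear and starting at 0). Filled circles are CPM by library total with exact 95% Poisson intervals, in blue for sham and red for TAC, and open diamonds are the TAC values on the reference scale, where sham values stay the same. The open diamonds of miR-34b-3p, 5.07 to 7.74 CPM, lie above all 4 sham values, and the sham value of miR-34a-5p at 83.4 CPM is Sham1.

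The 3p arms of Mir34a and Mir34c, the arms usually discarded when the hairpin is loaded, were at the edge of detection. miR-34a-3p had 0 counts in all 4 sham libraries, which allows up to 3 counts or 0.159 CPM in their sum, and 5, 0, 0 and 1 counts in TAC1 to TAC4. By library totals its TAC sum was 1.41 times that floor, and the exact 95% counting interval of the TAC to sham ratio reached down to 0.830. The two-sided exact permutation test gave p = 0.0286 on the reference scale although both groups held zeros. This was the form of the test adopted after its first p-values were seen, with the reference factor computed anew for each arrangement. The two-sided exact permutation test gave p = 0.429 with library totals, with TMM and with 1 reference factor per library. The smaller p thus came with the recomputed factor, and no change of miR-34a-3p is read from it. miR-34c-3p had 0, 0, 2 and 1 counts in sham and 4, 0, 0 and 1 counts in TAC libraries, a ratio of 1.17 by library totals with an exact 95% interval of 0.228 to 7.56. Neither arm can be given a direction at this depth.

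The arms of Mir34a and Mir34c were thus very unequal. The 3p arm made up 0.331% of the 1812 counts of Mir34a (exact binomial 95% interval 0.122 to 0.719%) and 0.760% of the 1052 counts of Mir34c (0.329 to 1.49%). Mir34b was seen through its 3p arm alone, since the name of its 5p arm was absent. An absent name is not a count of 0, so the balance of its arms is not known.

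The balance between members is free of the scaling, since a ratio within a library cancels it. The ratio of miR-34a-5p to miR-34c-5p was 4.11, 1.22, 0.889 and 1.32 in Sham1 to Sham4 and 1.39, 2.59, 1.34 and 2.19 in TAC1 to TAC4. miR-34a-5p exceeded miR-34c-5p in 7 of the 8 libraries (two-sided exact sign-flip permutation p = 0.0156). The groups overlapped, and the log2 ratio differed by 0.21 (SE 0.54) between TAC and sham (two-sided exact permutation p = 0.686, adjusted p = 0.686 over 3 ratios).

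The other 2 ratios, chosen after the data were seen, compared miR-34b-3p with the more abundant members. miR-34b-3p to miR-34c-5p, which come from neighbouring hairpins, lay between 0.0842 and 0.143 in sham and between 0.119 and 0.283 in TAC libraries, a log2 difference of 0.65 (SE 0.34, two-sided exact permutation p = 0.143, adjusted p = 0.429). miR-34b-3p to miR-34a-5p lay between 0.0207 and 0.117 in sham, with its lowest value in Sham1, and between 0.0717 and 0.129 in TAC libraries, a difference of 0.44 (SE 0.59, two-sided exact permutation p = 0.657, adjusted p = 0.686). In the ratios no member was shown to change relative to another.

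**Figure D4:**
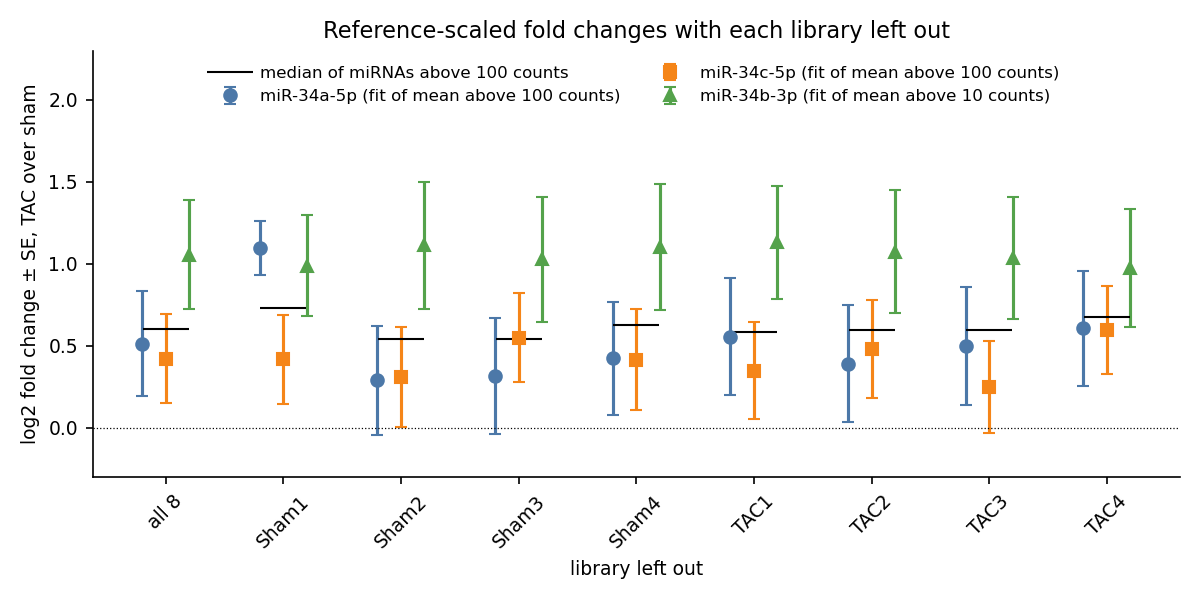
Reference-scaled log2 fold changes ± SE (vertical axis, TAC over sham, edgeR) of miR-34a-5p (circles), miR-34c-5p (squares) and miR-34b-3p (triangles, fit of miRNAs above a mean of 10 counts) with all 8 libraries and with each library left out (horizontal axis). Black bars are the median of the miRNAs above a mean of 100 counts. miR-34a-5p stands at 1.09 without Sham1 and between 0.29 and 0.61 without any other library.

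Because miRNAs of 1 seed pair with the same kind of site, the CPM of miR-34a-5p, miR-34c-5p and miR-449a-5p were also added up, miR-34c-5p being counted with them as its family is usually defined. miR-449a-5p, which marks multiciliated cells, added little, with 0, 1, 0 and 0 counts in sham and 2, 0, 2 and 6 counts in TAC libraries. Its TAC to sham ratio by library totals was 7.05 with an exact 95% counting interval of 1.00 to 306. TAC4, which held 6 of those counts, also had the highest summed epithelial markers at 1594 CPM, against 283 to 497 CPM in the other 7 libraries, and the part of this in its counts was not tested. On the reference scale the sum was 104, 57.9, 73.2 and 57.9 CPM in Sham1 to Sham4 and 103, 106, 113 and 88.7 CPM in TAC1 to TAC4. These are given as a description with no test, with overlapping groups because of Sham1, and by library totals the TAC mean of 55.2 ± 5.57 CPM was below the sham mean of 73.2 ± 21.6 CPM (SD, n = 4 each).

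The wider p53 circuit was described with 13 miRNAs known as induced by p53, as processed with its help or as acting on its mRNA. All 13 were tested, 5 were called higher and 0 lower, beside the 36.8% of all tested miRNAs called higher, and their median log2 fold change was 0.61, equal to that of all tested miRNAs. Of the 6 induced by p53, 3 were called higher, of the 3 processed with its help 1, and of the 4 acting on its mRNA 1. With TMM 0 of the 13 were called, as against 5.83% of all tested miRNAs, a share at which 0 of 13 tells nothing about the list.

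Among the p53-induced miRNAs, miR-200c-3p and miR-141-3p, products of a single cluster that maintain the epithelial state, had the highest log2 fold changes, at 1.83 (SE 0.57, adjusted p = 0.0182, edgeR) and 1.68 (SE 0.51, adjusted p = 0.0170). Without TAC4, the library with high epithelial markers, they stood at 0.82 (adjusted p = 0.00641, edgeR) and 0.84 (adjusted p = 0.00599, edgeR). Both still passed the call, beside a median of 0.68 in that fit, which called 90 of its 221 tested miRNAs higher. By library totals TAC1 to TAC3 overlapped the sham libraries for both. miR-200c-3p had 16.6 to 19.6 CPM there against 16.6 to 24.7 CPM in sham, and miR-141-3p 45.3 to 68.6 against 50.4 to 74.0 CPM. miR-215-5p followed at 1.04 (SE 0.20, adjusted p = 0.00162, edgeR). The lowest of the 13 was miR-107-3p at 0.18 (SE 0.29, adjusted p = 0.606), which also had its highest level in Sham1. Without that library it stood at 0.70 (SE 0.16, adjusted p = 0.00425), under the fold needed for a call, and 8 of the 13 were called higher, beside 47.5% of all tested miRNAs in that fit. miR-125b-5p, which targets the mRNA of p53, was called higher at 1.02 (SE 0.089, adjusted p = 4.05e-05), and miR-30d-5p, of the same role, stood at 0.37 (SE 0.14, adjusted p = 0.0428), under the fold needed.

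The 3 miRNAs most like each tested member were found by Pearson's r of log2 CPM over the 8 libraries, among 222 others, as a description with no test. For miR-34a-5p these were miR-133a-5p (r = 0.923, Spearman's rho 0.262), miR-107-3p (r = 0.900, rho 0.524) and miR-378c (r = 0.855, rho 0.762). All 3 were highest in Sham1, miR-133a-5p with 2641 CPM there and 946 to 1260 CPM in the other 7 libraries. Without Sham1 the r values were 0.0267, 0.129 and 0.625, so the first 2 likenesses rested on that library.

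For miR-34c-5p the most alike were miR-872-5p (r = 0.938, rho 0.976), miR-24-2-5p (r = 0.917, rho 0.810) and miR-146a-5p (r = 0.899, rho 0.976), and without Sham1 r was 0.978, 0.921 and 0.930. miR-146a-5p is an immune miRNA of the leukocyte list. That list's sum had the same extreme libraries in the sham group as miR-34c-5p, lowest in Sham1 (2943 CPM) and highest in Sham3 (4932 CPM), and so did the erythroid sum (418 and 1503 CPM). In the TAC group both sums were highest in TAC3, as miR-34c-5p was, but their lowest libraries differed from its lowest, TAC4. The leukocyte sum was lowest in TAC2 (2878 CPM) and the erythroid sum in TAC1 (43.8 CPM), with 526 CPM in TAC4. The endothelial sum shared the sham extremes (49248 and 72051 CPM) and also the TAC extremes, TAC4 (29274 CPM) and TAC3 (34557 CPM). The fibroblast and smooth muscle sum shared the sham extremes but was highest in TAC4. The cardiomyocyte sum had the sham extremes reversed, highest in Sham1 (198133 CPM) and lowest in Sham3 (160712 CPM). In the TAC group it was highest in TAC4 (245941 CPM) and lowest in TAC1 (194455 CPM). CPM are shares of a library's total, so the sums of the lists do not vary independently. Within the lists, 3 of 3 erythroid and 3 of 6 leukocyte miRNAs, miR-146a-5p among them, were highest of the sham group in Sham3. Of the endothelial pair miR-126a-3p had these sham extremes and miR-126a-5p did not. The part of cell makeup in the level of miR-34c-5p was not tested.

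**Figure D5:**
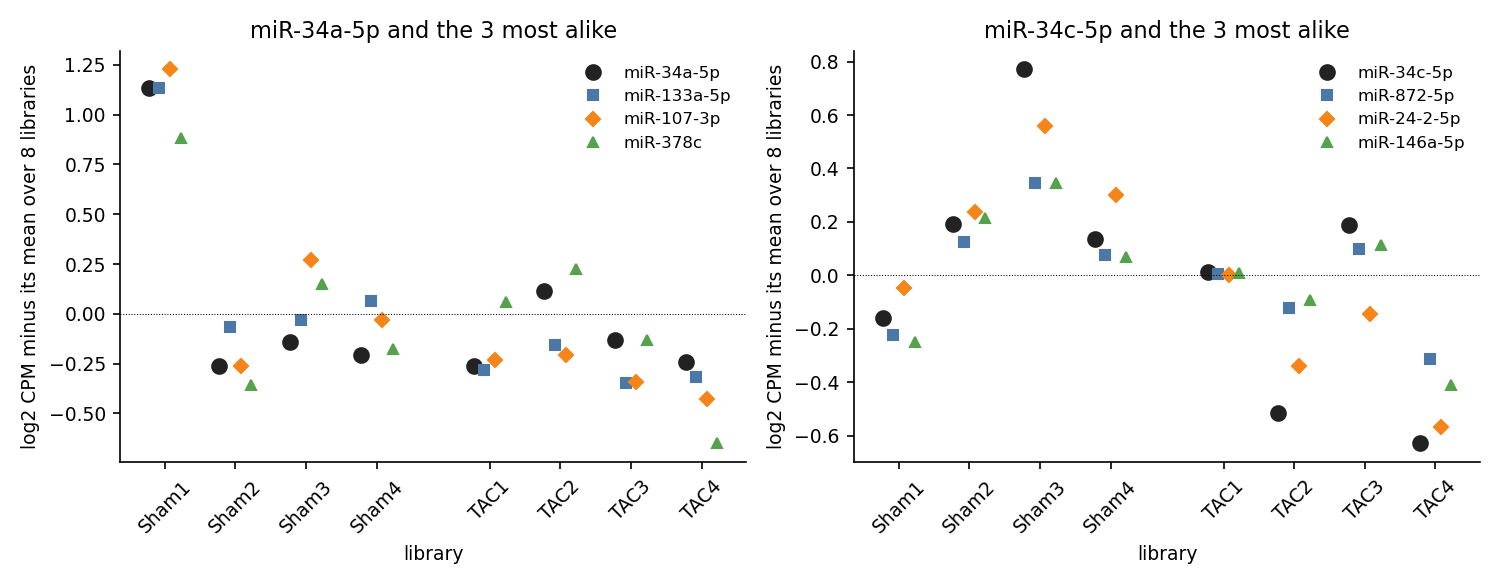
Log2 CPM by library total minus its mean over the 8 libraries (vertical axis) for miR-34a-5p (left) and miR-34c-5p (right), each with the 3 miRNAs most like it. On the left all 4 miRNAs are highest in Sham1, and on the right all 4 are highest in Sham3.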

How the data were processed

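Small RNA libraries were made from 1 μg of total RNA of isolated cardiomyocytes. The authors deposited, per library, whole-number counts of each miRNA with no normalization. The aligner, the miRNA annotation and the handling of tags that match several miRNAs are not given in the sources used here. The processing notes name the build mm10 and StringTie 1.3.1, a transcript assembler, with no role. The depth of a library is the sum of its counts.

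Groups came from the labels. No pair of libraries within a group agreed within sampling noise. Counts were tested with edgeR 4.0.16 (quasi-likelihood, R 4.3.3) for miRNAs above a mean of 100 counts, with library totals times 0.537 for TAC, where 0.537 is the ratio of mean CPM in TAC over sham, averaged geometrically over miR-19b-3p and miR-126a-3p, and Benjamini-Hochberg adjustment. The edgeR p-values do not carry the error of that factor, whereas the permutation tests compute it anew. Members below the minimum were tested on log2(CPM + 0.1) by exact permutation. The first form of that test treated an arrangement and its mirror image unequally and gave p-values under the possible minimum, so after they were seen the factor was split evenly over both groups. Single libraries were judged by Dixon's ratio. Alternatives were TMM, library totals, other reference factors, DESeq2 1.42.0, filters, pseudocounts, a replicate block and leaving out each library. The fitting was tested on simulated data.

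Named members were those in the tables, with the highest and lowest of the p53-linked list and the 3 most alike miRNAs. The members and lists were chosen with earlier results of these data known. Libraries are separate mice, and sequences were read from RefSeq tables.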

Additional observations from a re-analysis of the deposited data

Results flagged for a closer look

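Sham1 was far from the other sham libraries in 2 results. Its miR-34a-5p level was 83.4 CPM, against 31.7 to 34.4 CPM in Sham2 to Sham4 (Dixon's ratio of gap to range 0.947, above the 95% critical value for 4 samples). Its ratio of miR-34a-5p to miR-34c-5p was 4.11, against 0.889 to 1.32 (Dixon's ratio 0.866). Chance flags about 1 in 20 groups, and the second value contains the first. The cause was not tested.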

How the results depend on the processing

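The log2 fold changes of the 2 tested members took the sign of the scaling. With DESeq2's own size factors miR-34a-5p stood at −0.14 and miR-34c-5p at −0.21, with TMM at −0.17 and −0.27, and with library totals at −0.38 and −0.47. Leaving out 1 library at a time gave 0.29 to 1.09 for miR-34a-5p with reference scaling, where only the fit without Sham1 passed the call, and 0.33, −0.33, −0.31, −0.30, −0.13, −0.28, −0.14 and −0.097 with TMM without Sham1 to Sham4 and TAC1 to TAC4. For miR-34c-5p reference scaling gave 0.25 to 0.60, and TMM in the same order −0.35, −0.27, −0.063, −0.28, −0.35, −0.19, −0.39 and −0.11, with no call. The 84 miRNAs called became 13 with TMM, 24 with library totals, 14 with DESeq2's own size factors, 129 with no filter and 144 with the adjusted p alone. Leaving out single libraries gave 60 to 107 with reference scaling and 10, 11, 6, 11, 11, 8, 10 and 9 with TMM, in that order.

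For miR-34b-3p the log2 difference was 0.40 with TMM (exact p = 0.2), 0.20 with library totals, and 0.48 in the added edgeR fit with TMM (adjusted p = 0.415). Leaving out 1 library gave 0.95 to 1.15 by permutation and 0.98 to 1.13 by edgeR, where the value of 1.03 without Sham3 lost the call. For miR-34a-3p the difference of 1.32 was 1.15 with library totals, 1.19 with TMM and 1.29 with a reference factor per library (exact p = 0.429 each), and 0.35 with a pseudocount of 1 CPM (exact p = 0.0286). The edgeR fit without a filter gave 4.0 (adjusted p = 0.134), and leaving out 1 library gave 0.51 to 1.75. For miR-34c-3p the difference of 0.37 was −0.36 without TAC1, up to 0.78 without 1 other library, and 1.07 in the edgeR fit without a filter (adjusted p = 0.611). The log2 ratio of miR-34a-5p to miR-34c-5p ranged from −0.059 without Sham3 to 0.67, and that of miR-34b-3p to miR-34a-5p from −0.11 without Sham1 to 0.70. The summed seed, 0.49 on the log2 scale, was −0.41 with library totals, −0.19 with TMM, and 0.31 to 0.82 with 1 library left out, the highest without Sham1. The planned ratio of 5p to 3p arm gave no value, since no hairpin reached a mean of 5 counts in both arms.

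The study describes its mice as 4 pairs, and whether the replicate numbers follow those pairs is not given. Deviations of same-numbered libraries correlated at 0.168, −0.37, 0.315 and −0.217. Those of differently numbered libraries correlated at −0.192 to 0.417, so these values cannot decide whether the numbers pair the samples. With the replicate block miR-34a-5p stood at 0.64 and miR-34c-5p at 0.42 with no call, −0.047 and −0.27 with TMM, and 79 miRNAs were called (9 with TMM). The block left miR-34b-3p at 1.06 (exact sign-flip p = 0.125, the smallest that 4 pairs can give) and miR-34a-3p at 1.32 (p = 0.5). Depth limits the arms below 10 counts.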
